A study of Lytechinus variegatus with 9 samples.

Results

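The genes described here are 4 of the 26814 genes in the count table of the series: an ETV transcription factor (ETS translocation variant 1-like, LOC121410751), a sprouty (protein sprouty homolog 3-like, LOC121430850), and 2 immediate-early transcription factors, early growth response protein 1-B-like (LOC121424778) and transcription factor AP-1-like (LOC121423647). They are called ETV1-like, sprouty 3-like, EGR1-B-like and AP-1-like below. They were chosen by name, with their counts under both drugs and in the matings already known, so their own values are given as a description and carry no test. The tests concern other genes of the same pathway.

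The series measured poly-A RNA from whole wild-type embryos of the sea urchin Lytechinus variegatus. Embryos of 3 separate matings were each divided among 75 nM axitinib, an inhibitor of VEGF receptors, 1 µM K02288, an inhibitor of type I BMP receptors, and DMSO, the solvent, all in artificial sea water. Each drug was added between 18 and 20 hours post-fertilization, once the tri-radiate spicule rudiments had formed, and was kept until collection at 2 days post-fertilization at 21 °C. There were thus 3 axitinib, 3 K02288 and 3 DMSO libraries, 1 of each per mating, so the 3 DMSO libraries served as the reference for either drug. Totals ran from 9359212 to 10921655 counts in axitinib libraries, from 11469191 to 11565219 in K02288 libraries and from 9942452 to 11815263 in DMSO libraries. Because whole embryos were lysed, a lower level can mean fewer cells of a type or less RNA per cell, and the data cannot tell these apart.

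Receptor tyrosine kinases, among them the receptors for VEGF and FGF, pass their signal through Ras, Raf, MEK and ERK to transcription factors in the nucleus. In vertebrates and flies, ETS factors are direct targets of ERK, ETV genes are themselves switched on by FGF signalling, and sprouty proteins, also induced by the pathway, restrain it in a feedback loop. Immediate-early genes such as Egr1, Fos and Jun are transcribed within minutes of many stimuli, including growth factors, stress and wounding. In sea urchin embryos, VEGF made by the ectoderm acts on the primary mesenchyme cells (PMCs), the cells that build the skeleton, through a receptor tyrosine kinase.

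AP-1-like had the highest level per length of the 4 genes in every treatment. By the deposited FPKM, which divide the counts by gene length, AP-1-like averaged 136 ± 22.4 in axitinib, 183 ± 122 in K02288 and 113 ± 29.3 in DMSO libraries (SD, n = 3 each). ETV1-like followed in DMSO and K02288 libraries but not in axitinib libraries, with 7.65 ± 0.641 FPKM in axitinib, 41.1 ± 7.01 in K02288 and 46.6 ± 1.83 in DMSO libraries. In DMSO libraries the ETV1-like mean was above those of 93.0% and the AP-1-like mean above those of 97.0% of the 16814 genes with enough counts. Sprouty 3-like had 2.59 ± 0.642 FPKM in axitinib, 12.4 ± 0.338 in K02288 and 15.2 ± 2.65 in DMSO libraries. EGR1-B-like had 10.4 ± 3.44 FPKM in axitinib, 11.79 ± 4.74 in K02288 and 14.8 ± 3.32 in DMSO libraries. In DMSO libraries the order was thus AP-1-like, ETV1-like, sprouty 3-like and EGR1-B-like. The last neighbours, sprouty 3-like (12.5 to 17.8 FPKM) and EGR1-B-like (12.3 to 18.6 FPKM), did not differ beyond their spread there. In axitinib libraries EGR1-B-like (6.51 to 13.2 FPKM) and ETV1-like (7.25 to 8.39 FPKM) overlapped, and sprouty 3-like (2.10 to 3.32 FPKM) was the lowest.

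**Figure D1:**
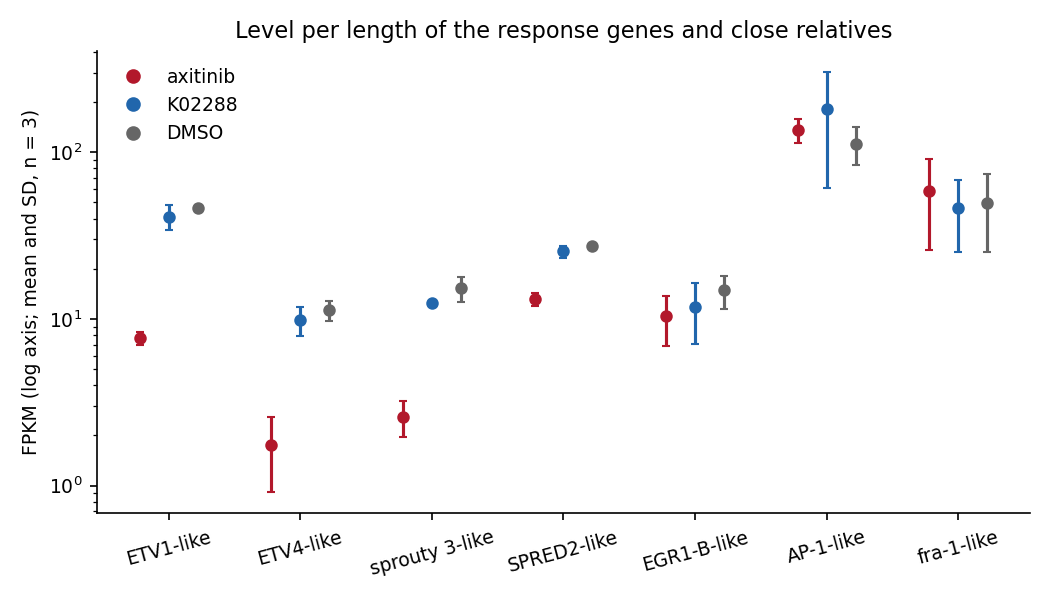
Level per length (FPKM, log axis) of the 4 response genes and of 3 relatives (ETV4-like, SPRED2-like and fra-1-like) in axitinib (red), K02288 (blue) and DMSO (grey) libraries; points are means and bars SD of 3 libraries. ETV1-like, at 7.65 FPKM in axitinib libraries, lies at 41.1 in K02288 and 46.6 in DMSO libraries, whereas the bars of AP-1-like overlap across treatments.

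ETV1-like encodes a member of the PEA3 group of ETS transcription factors, which bind DNA through the ETS domain. The gene lies on chromosome 3 from 30632985 to 30659456 on the minus strand of the Lvar_3.0 assembly. ETV1-like had 647, 744 and 640.1 normalized counts in the axitinib libraries of matings 1, 2 and 3, against 4070.5, 4296 and 3992 in the DMSO libraries. The 3 axitinib libraries lay far below the 3 DMSO libraries, with a gap of several-fold between the groups and a spread of 8.60% and 3.82% of the mean within them. The mean in axitinib libraries was 16.4% of that in DMSO libraries. The fitted log2 fold change was −2.61 (SE 0.13), and the ratios within matings 1, 2 and 3 were −2.65, −2.53 and −2.64 on the log2 scale (SD 0.07). By that fold change ETV1-like ranked 33rd from the lowest of 16035 genes.

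With K02288, ETV1-like had 3107, 4316 and 3497 normalized counts in matings 1, 2 and 3. These libraries overlapped the DMSO libraries, since the K02288 library of mating 2 was the highest of all 9. The fold change fitted over all 3 matings was −0.18 on the log2 scale (SE 0.15), with ratios of −0.39, 0.01 and −0.19 within matings 1, 2 and 3. Set directly against K02288, axitinib gave a log2 fold change of −2.43 (SE 0.17), with −2.26, −2.53 and −2.45 within the matings.

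Sprouty 3-like is on chromosome 1, from 12367621 to 12382002 on the minus strand. In flies and vertebrates sprouty proteins inhibit signalling between the receptor and ERK. Sprouty 3-like had 139, 219 and 155 normalized counts in the axitinib libraries of matings 1, 2 and 3, against 829, 1175 and 1012 in the DMSO libraries. Again no axitinib library came near the lowest DMSO library, and mating 2 was the highest of both groups. The mean in axitinib libraries was 17.01% of the DMSO mean. The log2 fold change was −2.55 (SE 0.24), ranked 35th from the lowest of 16035 genes, and the ratios within matings were −2.56, −2.41 and −2.69 (SD 0.14).

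K02288 libraries held 810.2, 844 and 806 normalized counts of sprouty 3-like, the tightest group of any for this gene (2.52% of the mean). The mean was 81.5% of the DMSO mean. All 3 ratios within matings were below 0, at −0.03, −0.48 and −0.33, although the libraries overlapped the DMSO libraries at the level of mating 1. Fitted over the matings, the log2 fold change was −0.30 (SE 0.17). Axitinib over K02288 gave −2.26 (SE 0.21), with −2.53, −1.93 and −2.37 within matings 1, 2 and 3.

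**Figure D2:**
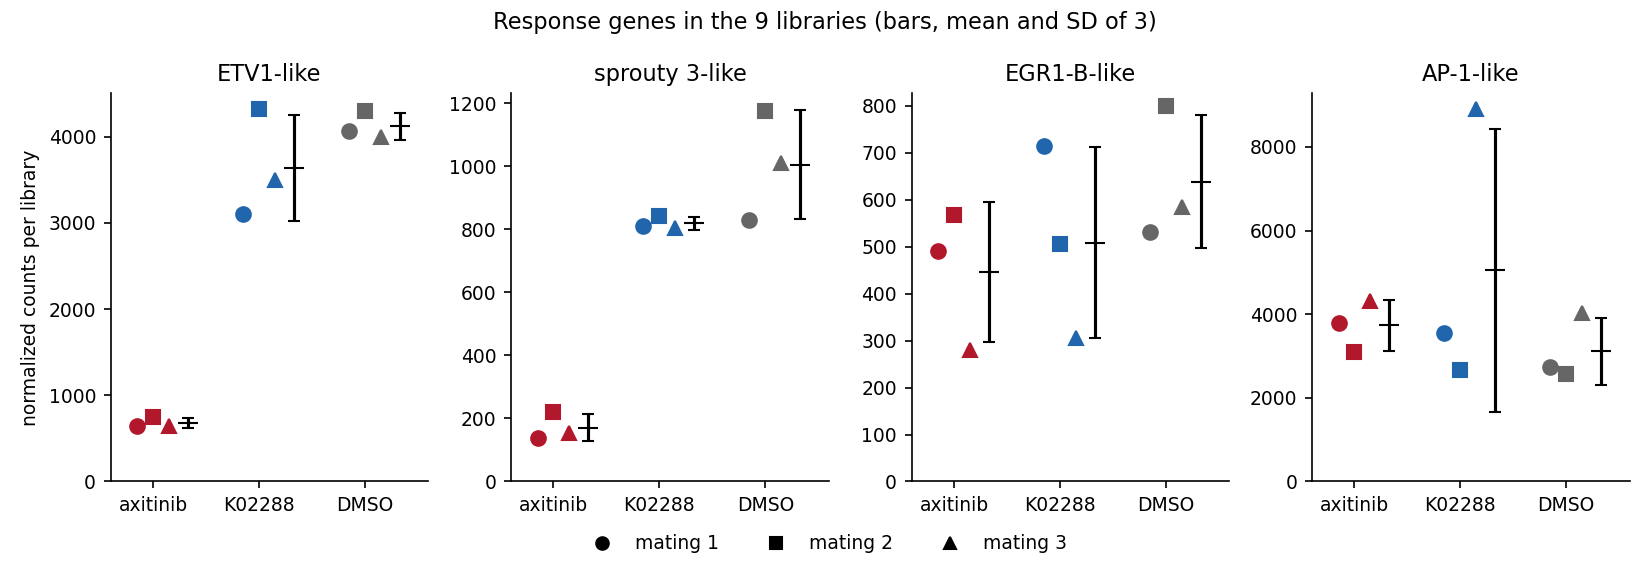
Normalized counts (vertical axes from 0) of the 4 response genes in each of the 9 libraries, by treatment; symbols mark the mating and black bars the mean ± SD of 3 libraries. For ETV1-like and sprouty 3-like the 3 axitinib libraries lie below all others, and for AP-1-like the K02288 library of mating 3 stands at 8915.

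EGR1-B-like encodes a zinc finger factor of the Egr family and lies on chromosome 12 from 6800508 to 6805480 on the minus strand. It had 492, 569 and 281 normalized counts in the axitinib libraries of matings 1, 2 and 3, against 533, 801 and 584 in the DMSO libraries. The groups overlapped, because the axitinib library of mating 2 exceeded the DMSO library of mating 1. Within each mating, though, axitinib was the lower, with log2 ratios of −0.11, −0.49 and −1.05. Over the 3 matings the log2 fold change was −0.52 (SE 0.29), and it ran from −0.73 without the axitinib library of mating 2 to −0.27 without that of mating 3. Its SD over matings, 0.47, was several times those of ETV1-like and sprouty 3-like.

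For EGR1-B-like the K02288 libraries had 714, 506 and 307 normalized counts. The matings did not move one way: mating 1 was above its DMSO library (log2 ratio 0.42), and matings 2 and 3 were below theirs (−0.66 and −0.93). The fitted log2 fold change was −0.33 (SE 0.31), and it was −0.66 without the K02288 library of mating 1 and −0.07 without that of mating 3. The direct ratio of axitinib to K02288 was −0.54, 0.17 and −0.13 within matings 1, 2 and 3, with a fitted value of −0.19 (SE 0.36).

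AP-1-like is annotated as the AP-1 transcription factor, the name under which the leucine zipper protein Jun is known, and lies on chromosome 11 from 5547567 to 5550098 on the minus strand. AP-1-like had 3782, 3104 and 4319 normalized counts in the axitinib libraries of matings 1, 2 and 3, against 2731, 2559 and 4034 in the DMSO libraries. The groups overlapped, but each mating had the higher count with axitinib, at log2 ratios of 0.47, 0.28 and 0.10. The fitted log2 fold change was 0.26 (SE 0.21), and it was 0.50 without the DMSO library of mating 3.

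The K02288 libraries had 3547, 2677 and 8915 normalized counts of AP-1-like, and the last of these was the highest of all 9 libraries by a wide margin. The ratios to DMSO within matings 1, 2 and 3 were 0.38, 0.06 and 1.14 on the log2 scale. The fitted log2 fold change was 0.70 (SE 0.44). Without the K02288 library of mating 3 the value was −0.0034, in a fit that still held the DMSO library of that mating. The replicate block fit of all 3 matings gave 0.53 (SE 0.14). This SE draws on spread shared over genes, and the gene's own ratios within matings had an SD of 0.56. In mating 3 the ratio of AP-1-like was the 367th highest of 16288 genes, and in mating 2 it lay above those of 54.8% of genes. Axitinib over K02288 was 0.09, 0.21 and −1.05 within the matings.

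Of the 4 genes, 2 had all 3 axitinib libraries below all 3 DMSO libraries, 0 had all 3 above, and 0 were separated in either direction with K02288. Over all genes tested, 5.54% lay wholly below and 4.57% wholly above with axitinib (of 16035), and 3.57% wholly below and 3.24% wholly above with K02288 (of 16288). Because this pattern was among the values the genes were chosen on, nothing is read from the counts.

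The ratios within matings put the contrast between the pairs of genes side by side. ETV1-like and sprouty 3-like had axitinib ratios between −2.69 and −2.41 in every mating, and K02288 ratios between −0.48 and 0.01. For EGR1-B-like and AP-1-like the range over matings exceeded the mean distance from DMSO with both drugs. For ETV1-like and sprouty 3-like it did so with K02288 but not with axitinib.

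**Figure D3:**
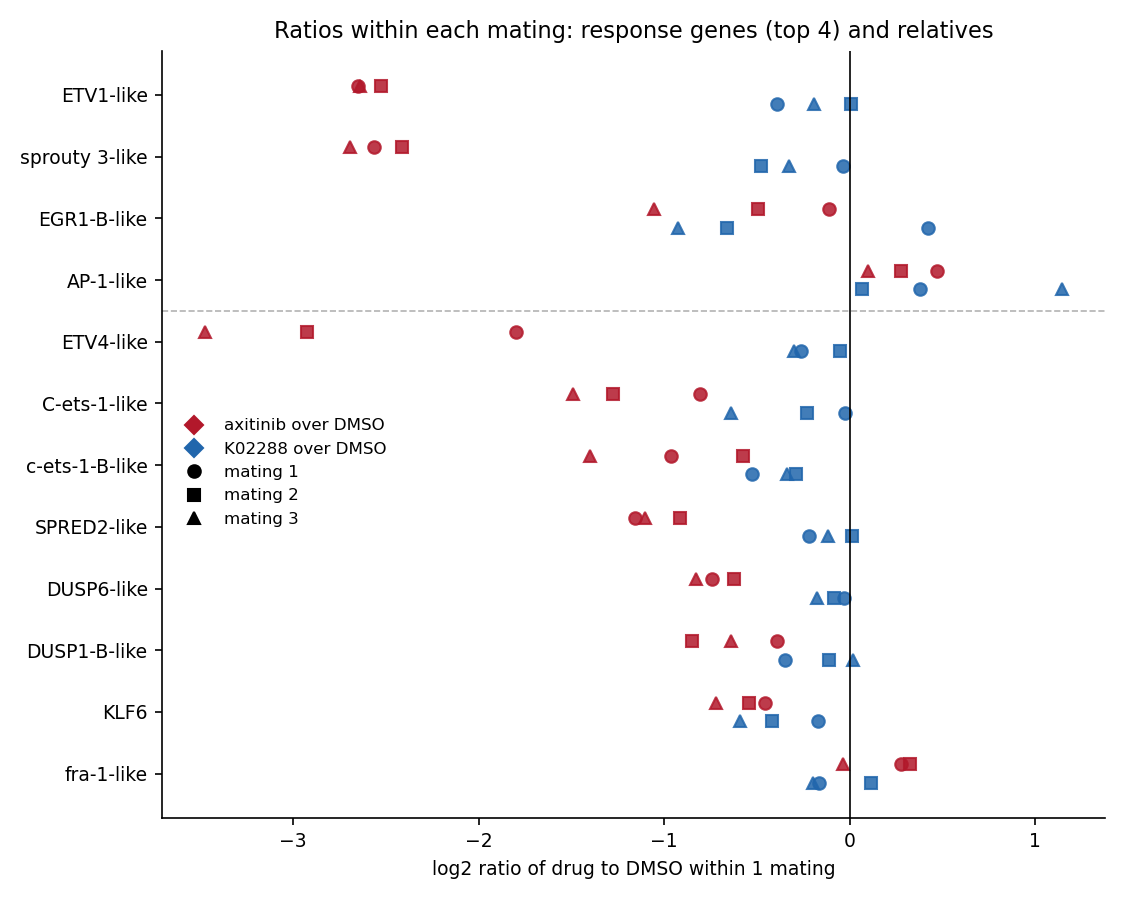
Log2 ratio of drug to DMSO within each mating (horizontal axis) for the 4 response genes (above the dashed line) and 8 list genes, axitinib in red above K02288 in blue, symbols by mating; DUSP6-like and DUSP1-B-like are dual specificity phosphatases, SPRED2-like is sprouty-related, KLF6 is Krueppel-like factor 6 and fra-1-like is fos-related antigen 1-like. Axitinib ratios of ETV1-like lie between −2.65 and −2.53, whereas K02288 ratios of EGR1-B-like lie on both sides of 0.

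How far treatment and mating each accounted for a gene's variation was described by splitting the sum of squares of log2 CPM over the 9 libraries. For ETV1-like, 98.8% followed treatment and 0.847% mating. For sprouty 3-like, 97.0% followed treatment and 2.08% mating. The medians over all 16814 genes were 14.8% for treatment and 58.5% for mating, and the mating share was the larger for 12794 of them. EGR1-B-like had 24.3% by treatment and 47.0% by mating, and AP-1-like had 17.2% by treatment and 60.2% by mating, both near the medians. Without the axitinib libraries the treatment share of ETV1-like was 31.1% and that of sprouty 3-like 47.5%, with mating shares of 46.6% and 31.8%.

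The mating that was highest also differed among the genes. Averaged over treatments, mating 2 was highest for ETV1-like, sprouty 3-like and EGR1-B-like, and mating 3 for AP-1-like. The ranges of the mating means were 0.25, 0.40, 0.73 and 0.96 log2 units for ETV1-like, sprouty 3-like, EGR1-B-like and AP-1-like, beside a median of 0.56 over all genes. EGR1-B-like was lowest in mating 3 and AP-1-like lowest in mating 2.

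**Figure D4:**
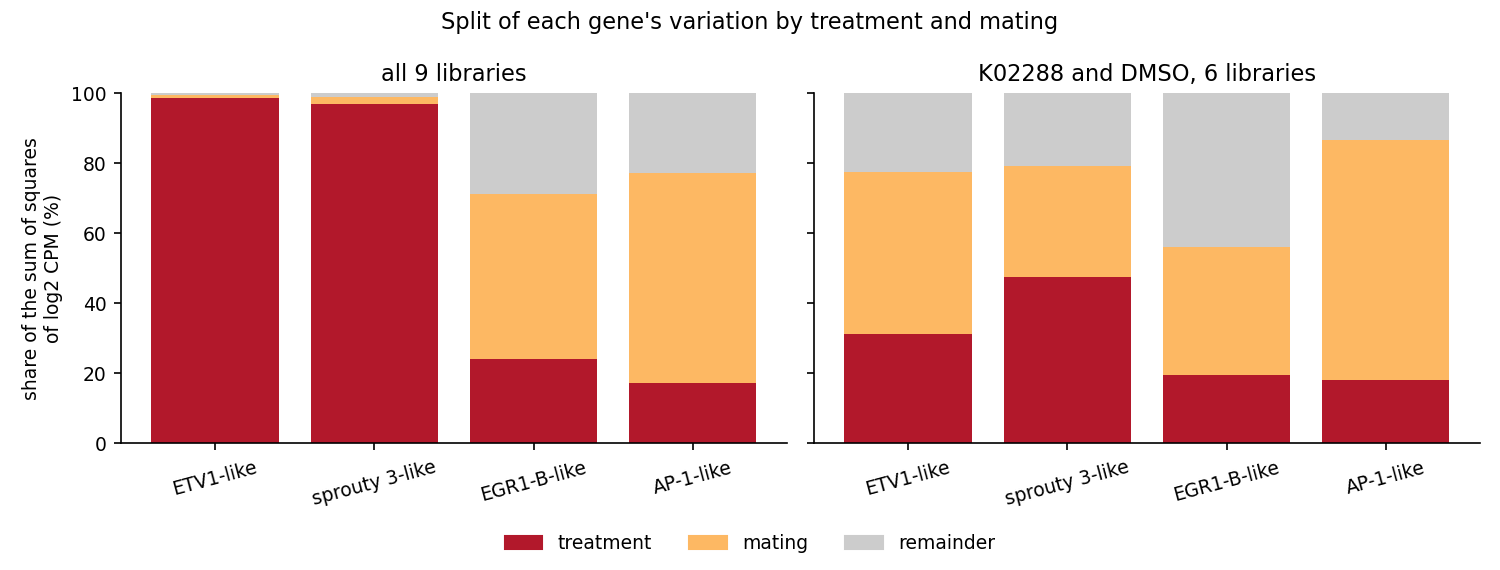
Share of the sum of squares of log2 CPM (vertical axis, %) that followed treatment (red), mating (orange) and neither (grey) for each of the 4 genes, over all 9 libraries (left) and over the 6 K02288 and DMSO libraries (right). Treatment takes 98.8% for ETV1-like and 17.2% for AP-1-like on the left, and 31.1% and 18.1% on the right.

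The genes whose levels over the 9 libraries were most like each of the 4 were then listed by Pearson's r of log2 CPM, out of 16813 genes. These values describe 9 libraries that share matings and treatments. The gene most like ETV1-like was the sprouty-related gene SPRED2-like (LOC121418204, r = 0.996), and the next were sprouty 3-like itself (r = 0.988) and APCDD1-like (LOC121406853, r = 0.980), whose vertebrate namesake inhibits Wnt and BMP signalling. The gene most opposed was procathepsin L-like (LOC121410870, r = −0.996), a lysosomal protease precursor, with means of 2304 normalized counts in axitinib, 516 in K02288 and 487 in DMSO libraries. SPRED2-like (r = 0.989) was also most like sprouty 3-like, followed by ETV1-like and deoxyribonuclease-1-like (LOC121410659, r = 0.987), and procathepsin L-like was again most opposed (r = −0.986).

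EGR1-B-like and AP-1-like kept other company. The genes most like EGR1-B-like were WAP four-disulfide core domain protein 1-like (LOC121427855, r = 0.960), the signalling ligand Wnt-5b-like (LOC121411849, r = 0.949) and a mitochondrial glutamyl-tRNA amidotransferase subunit (LOC121413457, r = 0.944), and dixin-like (LOC121420318, r = −0.955) was most opposed. AP-1-like was most like male-specific lethal 1 homolog (LOC121425932, r = 0.961) and 2 uncharacterized genes (LOC121411464, r = 0.956, and LOC121420123, r = 0.946), and most opposed to a UDP-GalNAc transferase (LOC121419285, r = −0.963). The K02288 library of mating 3 was the highest of the 9 for AP-1-like and the genes most like it, and the lowest for the transferase. How far the r values of AP-1-like rest on that library was not tested. EGR1-B-like and AP-1-like ran against each other (r = −0.70). Each was only loosely related to ETV1-like, at r = 0.39 for EGR1-B-like and r = −0.09 for AP-1-like.

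A gene with a related product name lies next to ETV1-like. ETS translocation variant 4-like (ETV4-like, LOC121410752) is the next gene on chromosome 3, 33376 bases away on the same strand, from 30692833 to 30712531. ETV4-like had 71.5, 41.3 and 27.8 normalized counts in the axitinib libraries of matings 1, 2 and 3, against 253, 326 and 329 in the DMSO libraries. Every axitinib library lay far below every DMSO library. ETV4-like fell with axitinib, to 15.5% of the DMSO mean (log2 fold change −2.69, edgeR adjusted p = 0.051, and −2.71 with adjusted p = 5.0e-06 in the replicate block fit, which has mating as a term). With K02288 it had 210.5, 315 and 267 normalized counts (log2 fold change −0.21 in the block fit, adjusted p = 0.55, lower in 3 of 3 matings). Per length it was the less abundant of the neighbours, at 11.3 FPKM in DMSO libraries. How reads shared by similar ETS genes were counted is not given in the sources used here, so the split between ETV1-like and ETV4-like is uncertain to that extent. Whether these neighbouring entries are separate genes was not tested. The gene on the far side of ETV4-like, diacylglycerol kinase beta-like (LOC121410754), had 2591 to 2914 raw counts in axitinib libraries, 2287 to 3080 in K02288 libraries and 2743 to 3622 in DMSO libraries, and these ranges overlapped.

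Other genes of the pathway were taken from 4 lists made by product name: ETS factors (15 genes), feedback regulators (26), immediate-early genes (23) and the receptor-to-ERK cascade (45), 109 in all without the 4 genes above. Because the lists go by words of the name, they also hold some genes outside the pathway part they are named for. With axitinib 103 of the 109 had enough counts. At an unadjusted p of at most 0.05, the threshold of the study's methods, 10 of them fell and 2 rose, while 91 did not pass. Over all 16035 genes 3.07% fell and 1.77% rose. With the replicate block and adjusted p under 0.05, 11 fell and 5 rose, beside 3.44% and 2.79% of all genes. In this fit 4 ETS genes fell and 2 rose, 3 feedback genes fell and 0 rose, 1 immediate-early gene fell and 0 rose, and 3 cascade genes fell and 3 rose. Without the block the median log2 fold changes were −0.05 for the ETS, −0.12 for the feedback, 0.10 for the immediate-early and −0.10 for the cascade list, against 0.01 for all genes. With the block they were 0.0022 for the ETS, −0.13 for the feedback, 0.08 for the immediate-early and −0.10 for the cascade list, so the sign of the ETS median differed between the fits. All these medians were small beside the changes of the genes named next.

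**Figure D5:**
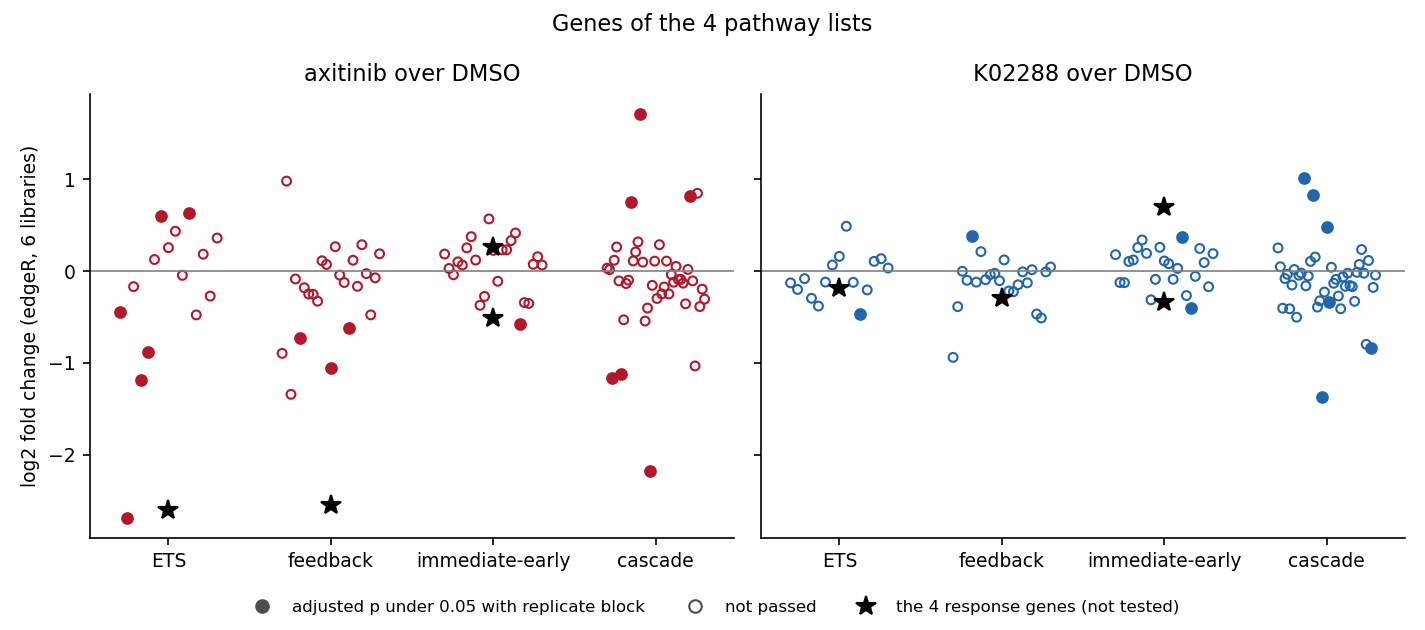
Log2 fold change over DMSO (edgeR, 6 libraries) of the list genes, axitinib left and K02288 right, by list; filled circles passed an adjusted p under 0.05 with the replicate block, open circles did not, and stars are the 4 response genes, which were not tested. ETV4-like is the lowest filled circle with axitinib, at −2.69.

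Among the ETS genes, C-ets-1-like (LOC121419770), which the study calls ets1, a factor that activates skeletogenic genes in sea urchins, had 264, 226 and 193 normalized counts in axitinib libraries and 463, 549.6 and 546 in DMSO libraries. The axitinib libraries all lay below the DMSO libraries, at 43.8% of the mean. Its log2 fold change with the replicate block was −1.20 (SE 0.14, edgeR adjusted p = 6.4e-05). The similarly named c-ets-1-B-like (LOC121419790) fell by 0.95 (adjusted p = 0.0022) and Elk-3-like (LOC121410589) by 0.42 (adjusted p = 0.025) on the log2 scale in the same fit but neither passed the unadjusted threshold of 0.05 without the block. Reads may be shared between similar ETS genes, so the values of this pair of ets-1 genes are uncertain. Rises with axitinib were seen for Erg-like (LOC121419884, log2 fold change 0.58, adjusted p = 0.039) and for an uncharacterized ETS family gene (LOC121420990, 0.69, adjusted p = 0.0012), of which the second did not pass the unadjusted threshold without the block. ERG homolog (LOC121419882), on the same chromosome and strand as Erg-like, did not pass with the block. It had 643 to 892 raw counts in axitinib and 645 to 786 in DMSO libraries.

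SPRED2-like encodes a protein that, in vertebrates, blocks activation of Raf by Ras. SPRED2-like had 764, 906 and 795 normalized counts in axitinib libraries, against 1703, 1712 and 1707 in DMSO libraries. The DMSO libraries were nearly identical and the axitinib libraries were at 48.1% of their mean. The fall was −1.06 on the log2 scale (SE 0.10, edgeR with the replicate block, adjusted p = 6.1e-06), and its adjusted p without the block was 0.046. DUSP6-like (LOC121410948), a dual specificity phosphatase whose vertebrate namesake removes phosphate from ERK, had 244, 315 and 254 normalized counts in axitinib libraries and 409, 486 and 453 in DMSO libraries. It fell by 0.73 on the log2 scale (adjusted p = 0.0014, block fit in edgeR). DUSP1-B-like (LOC121424991) fell by 0.63 (adjusted p = 0.0095, same fit). In both the axitinib libraries lay below every DMSO library.

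In the immediate-early list only Krueppel-like factor 6 (LOC121423785), a zinc finger factor, passed with axitinib. Krueppel-like factor 6 had 1283, 1718 and 1338 normalized counts in axitinib libraries, against 1759, 2504 and 2206 in DMSO libraries, a fall of 0.57 on the log2 scale (edgeR with the replicate block, adjusted p = 0.0015). The fos relative in the list, fos-related antigen 1-like (fra-1-like, LOC121418762), had 5553, 3014 and 1781 normalized counts in axitinib, 4082, 2605 and 1594 in K02288 and 4580, 2410 and 1826 in DMSO libraries. Its matings differed far more than its treatments, with 94.7% of its sum of squares by mating and 3.51% by treatment.

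Cascade genes moved both ways with axitinib. VEGFR2-like (LOC121408625), the VEGF receptor of the skeletogenic cells, had 348, 274 and 308 normalized counts in axitinib libraries, against 614, 657 and 756 in DMSO libraries. The groups did not overlap, and it fell by 1.12 on the log2 scale (SE 0.12, edgeR with the replicate block, adjusted p = 3.4e-05). A platelet-derived growth factor receptor alpha-like gene (LOC121415121) rose: it had 275, 247 and 236 normalized counts in axitinib libraries, against 87.3, 61.9 and 81.5 in DMSO libraries (log2 fold change 1.73, adjusted p = 9.2e-06). Of the others, ras-like protein rasD (LOC121410635, log2 fold change 0.70, adjusted p = 0.00032) and the ligand FGF18-like (LOC121425661, 0.77, adjusted p = 0.018) rose, and the ligand PDGF subunit A-like (LOC121407686, −1.26, adjusted p = 0.0070) and MEK1-like (LOC121415882, −2.02, adjusted p = 0.0035) fell. Without the block rasD, FGF18-like and PDGF subunit A-like did not pass the unadjusted threshold. MEK1-like had few counts in mating 3, with 10.02 normalized counts in the axitinib and 14.6 in the DMSO library. Another gene with the same product name (LOC121415768) did not pass with the block. Its raw counts were 60 to 102 in axitinib and 75 to 174 in DMSO libraries. How reads shared by these genes were counted is not given.

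With K02288, 103 of the 109 list genes were tested, and 2 fell and 3 rose at an unadjusted p of at most 0.05, beside 1.23% and 1.22% of all 16288 genes. With the replicate block and adjusted p under 0.05, 5 fell and 5 rose, beside 1.05% and 1.83% of all genes. None of ETV4-like, C-ets-1-like, SPRED2-like, DUSP6-like, DUSP1-B-like or VEGFR2-like was among them, which does not show that they were unchanged. PDGF receptor alpha-like (log2 fold change 0.84, adjusted p = 0.022) and rasD (1.01, adjusted p = 3.3e-05) rose with K02288 and Krueppel-like factor 6 fell (−0.40, adjusted p = 0.038), all in edgeR with the replicate block. MEK1-like (LOC121415882, −1.28, adjusted p = 0.043), SHP2-like (LOC121427246, a cytoplasmic tyrosine phosphatase, −0.77, adjusted p = 0.038) and EPS8-like protein 2 (LOC121417258, an EGF receptor kinase substrate, −0.34, adjusted p = 0.0496) also fell. SHP2-like had 125, 111 and 160 raw counts in K02288 and 303, 159 and 192 in DMSO libraries, so mating 1 had the largest difference. MEK1-like had 27, 57 and 14 raw counts in K02288 and 93, 144 and 14 in DMSO libraries, so its few raw counts in mating 3 were equal. Other genes with the product names of MEK1-like (LOC121415768) and SHP2-like (LOC121427160) did not pass in this fit. A rise in the feedback list was that of LRIG3 (LOC121411004, leucine-rich repeats and immunoglobulin-like domains protein 3, 0.38, adjusted p = 0.028). The others were BTG3-like (LOC121420380, 0.37, adjusted p = 0.0475), ras-like protein family member 12 (LOC121415963, 0.52, adjusted p = 0.047) and the uncharacterized ETS gene LOC121420990 (−0.42, adjusted p = 0.047). Of these 10 genes, Krueppel-like factor 6, MEK1-like, BTG3-like, ras-like protein family member 12 and LOC121420990 did not pass the unadjusted threshold without the block.

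The difference between the drugs was tested directly for these relatives, in the axitinib and K02288 libraries. The genes given here had all passed in axitinib over DMSO, and the same axitinib libraries enter this test. Its p-values are therefore not independent of that choice and tend to be too low. With the replicate block in edgeR, axitinib over K02288 was −2.51 (SE 0.26) for ETV4-like (adjusted p = 1.5e-05), −0.95 (SE 0.08) for SPRED2-like (adjusted p = 3.7e-06) and −1.15 (SE 0.10) for VEGFR2-like (adjusted p = 3.8e-06). C-ets-1-like (−0.90, adjusted p = 0.00015) and DUSP6-like (−0.64, adjusted p = 0.0017) were also lower with axitinib than with K02288. For DUSP1-B-like the difference did not pass (−0.48, SE 0.14, adjusted p = 0.055), nor did it for Krueppel-like factor 6 (−0.18, SE 0.08, adjusted p = 0.24). The uncharacterized ETS gene LOC121420990 was higher with axitinib than with K02288 (1.11, SE 0.09, adjusted p = 2.0e-06).

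The study's list of PMC-enriched mRNAs from single-cell data holds 302 genes of the count table, all 302 detected, and none of the 4 response genes is in it. AP-1-like is, as Jun, in a separate list that the study curated by hand. The summed level of the 302 genes was 32060 to 35245 CPM in axitinib, 34082 to 35634 in K02288 and 36715 to 39327 in DMSO libraries, so it was lower than in DMSO with either drug. ETV1-like and sprouty 3-like stood at 16.4% and 17.01% of the DMSO mean with axitinib and at 88.4% and 81.5% with K02288. For 8 skeletogenic genes with known names, all 8 detected and VEGFR2-like among them, the sum was 1673 to 2331 CPM in axitinib, 2223 to 2630 in K02288 and 3163 to 4134 in DMSO libraries. Spicule matrix gene sm30a weighed most in it, with 7573 to 14574 raw counts in axitinib, 15905 to 21057 in K02288 and 21596 to 28272 in DMSO libraries. Not all 8 followed the sum. Raw counts of sm29 overlapped those of DMSO with axitinib (3951 to 5146 against 4394 to 5578). Those of P16 (1019 to 1659 against 895 to 1577) and VEGFR2-like (659 to 764 against 563 to 743) did so with K02288. The study lists each of these 8 as lowered by one or both drugs in these same libraries, so their lower sums are no independent sign of fewer cells. Gut markers were the genes with carboxypeptidase or trypsin in the product name, which need not all be gut genes. They (68 of 73 genes detected) summed to 2653 to 3025 CPM in axitinib, 3126 to 3462 in K02288 and 3067 to 3715 in DMSO libraries. The axitinib libraries thus lay wholly below the DMSO libraries here too. The other marker lists, also made by words of the product name, overlapped the DMSO libraries with both drugs. Immune and pigment cell markers (2 of 2 detected) summed to 561 to 1008 CPM in axitinib, 428 to 663 in K02288 and 390.2 to 673 in DMSO libraries, and muscle markers (11 of 11) to 2548 to 3073 CPM in axitinib, 2971 to 3296 in K02288 and 2877 to 3145 in DMSO libraries. Neuron markers (9 of 9) summed to 734 to 821 CPM in axitinib, 738 to 807 in K02288 and 749.6 to 866 in DMSO libraries, and ciliated ectoderm markers (17 of 17) to 1488 to 2296 CPM in axitinib, 1383 to 1960.3 in K02288 and 1907 to 1931 in DMSO libraries. The part of cell numbers of any of these types in the changes of ETV1-like and sprouty 3-like was not tested.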

How the data were processed

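Per the methods, the authors sequenced poly-A RNA by a strand-specific protocol and aligned the reads with HISAT2 to the Lvar genome, version 3.0; the counting tool is not given in the sources used here. The deposited counts are raw whole numbers per gene. A second deposited table holds FPKM, which were checked to be the counts over gene length, scaled by 1 factor for each library. The 4 response genes and all lists were chosen with earlier results of these data known. All 26814 gene IDs matched the RefSeq table of Lvar_3.0, with the same starts and ends.

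The main test was edgeR's two-sided quasi-likelihood test (version 4.0.16 under R 4.3.3), after TMM scaling and filterByExpr with the treatments as groups. Each comparison used its own 6 libraries and, like the study's, had no term for mating. Adjusted p-values are Benjamini-Hochberg values over every gene that passed the filter. The script was tested on simulated data. Normalized counts are the counts after TMM scaling of the 9 libraries together, and log2 CPM used a prior count of 2. Alternatives were RLE size factors, 2 other count filters, DESeq2 1.42.0, 1 fit of all 9 libraries, the replicate block, limma 3.58.1 on log2(FPKM + 1) and log2(FPKM + 0.1), and leaving out each library.

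The replicate number is the mating, per the methods. Deviations from treatment means correlated at 0.71 to 0.75 in the 9 pairs of libraries of the same number and at −0.42 to −0.33 in pairs of other number and treatment, so the numbers pair the libraries.

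Named genes were the 4 response genes, list genes with an adjusted p under 0.05 in the replicate block fit (at most 6 per list and drug), list genes adjacent to a response gene, the 3 most and 1 least correlated genes for each, and relatives by name. NR4A2-like and the gene beyond ETV4-like were named after their values were seen. Some list genes were caught by words of their name only and were kept. Examples are c-Myc-binding proteins, mitogen-activated protein kinase kinases 4, 6 and 7 and ras GTPase-activating protein-binding protein 2. The lists are thus wider than the pathway parts they are named for. Promoter and protein sequences were not analysed here. Depth was 9359212 to 11815263 counts per library. Without the block, p-values rest on the spread among the libraries of a treatment, which includes the differences between the 3 matings. In the block fit they rest on the spread that is left after treatment and mating are fitted. In both fits edgeR moderates a gene's spread with values shared over genes. A block SE can therefore be smaller than the gene's own ratios within the 3 matings would give.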

Additional observations from a re-analysis of the deposited data

Results flagged for a closer look

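EGR1-B-like with K02288 was looked at again because its matings went in opposite directions. The log2 ratio of the K02288 to the DMSO library was 0.42 in mating 1, −0.66 in mating 2 and −0.93 in mating 3. Each value rests on 1 library per treatment, and the difference between matings was not tested.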

How the results depend on the processing

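With 3 matings, the values of EGR1-B-like and AP-1-like are limited by the spread between matings. For the 12 fold changes and 4 list counts, 199 of the 232 alternative values kept their direction and stayed within that spread, or within 1.5 times the count. On log2(FPKM + 1) the log2 fold changes over DMSO with axitinib were −2.46 for ETV1-like and −2.18 for sprouty 3-like, and over K02288 −2.27 and −1.92, since the added 1 compresses low levels. Leaving out single libraries gave −2.69 to −2.57 for ETV1-like and −2.78 to −2.42 for sprouty 3-like with axitinib over DMSO. With axitinib over K02288 the range was −2.53 to −2.29 for ETV1-like, −0.45 to 0.14 for EGR1-B-like and −0.74 to 0.26 for AP-1-like, the last changing sign without the K02288 library of mating 3 and EGR1-B-like without the axitinib library of mating 3 (0.06) or the K02288 library of mating 1. AP-1-like ranged from 0.14 to 0.50 with axitinib over DMSO and from −0.0034 to 1.00 with K02288 over DMSO, the lowest without that same library while its DMSO partner stayed in. EGR1-B-like ranged from −0.73 to −0.27 with axitinib over DMSO and from −0.66 to −0.07 with K02288 over DMSO.

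Counts of list genes past the threshold depended on the treatment of mating. With the replicate block at an unadjusted p of at most 0.05, 20 fell and 15 rose with axitinib, and 11 fell and 7 rose with K02288. With adjusted p under 0.05 and no block, 1 fell and 1 rose with axitinib, and 0 fell and 0 rose with K02288 (edgeR; 2 and 3 at the unadjusted threshold in edgeR and in DESeq2). With adjusted p under 0.05 in the block fit, 11 fell and 5 rose with axitinib, and 5 fell and 5 rose with K02288. On log2(FPKM + 1) 0 fell with K02288, and on log2(FPKM + 0.1) 1 fell. Leaving out single libraries gave 6 (without the DMSO library of mating 2) to 10 falls and 1 to 5 rises with axitinib, and 0 to 2 falls and 1 to 4 rises with K02288. The 5 rises came without the axitinib library of mating 3 and the 1 rise without the DMSO library of mating 2. With K02288, 0 falls and 1 rise came without the K02288 library of mating 1, and 1 fall without the K02288 library of mating 2 or the DMSO library of mating 2 or 3. The replicate block moved no fold change of the 4 response genes by more than the spread between matings.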

Other observations

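Nuclear receptor subfamily 4 group A member 2-like (LOC121425268), an orphan nuclear receptor of the immediate-early list, had 1469, 622 and 383 normalized counts in axitinib libraries of matings 1, 2 and 3, 1538, 1016 and 461 in K02288 libraries and 1865, 833 and 443 in DMSO libraries. Mating 1 was highest under every treatment, and 93.9% of its sum of squares followed mating and 3.85% treatment. For 19 of the 23 immediate-early list genes the mating share exceeded the treatment share, beside 12794 of all 16814 genes. The list did not stand out by mating: its median mating share was 56.9%, against 58.5% over all genes, and 11 of the 23 were above that.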
